A study of Mus musculus with 10 samples.

Results

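The genes described here encode isozymes of 4 steps of glycolysis, in the forms that adult liver mainly uses and the forms typical of other tissues. Of 18193 mouse genes with a probe set of their own on the array, 8 were taken by symbol: Pfkp, Pfkl and Pfkm for phosphofructokinase, Pkm and Pklr for pyruvate kinase, Hk1 and Hk2 for hexokinase, and Aldoa for aldolase. Pfkl and Pklr were taken as the liver forms, and the other 6 as the non-liver forms. Each gene was represented by the probe set with the highest mean signal over the 10 arrays.

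The arrays held liver RNA of mice of a mixed 129/B6 strain. The 2 hepatocellular carcinomas (HCC) came from Gnmt knockout mice, a female of 14 months and a male of 18 months, each with an array of tumour-adjacent liver. A sample labelled as liver dysplasia nodules, called the nodule here, and its adjacent liver came from a Gnmt knockout female of 21 months. That label is plural, so the sample may hold more than 1 nodule. The remaining 4 arrays were made at 11 weeks from Gnmt knockout (KO) and wild-type (WT) livers, with 1 female and 1 male array per genotype, each a pool of 3 mice. The Gnmt product, glycine N-methyltransferase, is plentiful in hepatocytes and uses up S-adenosylmethionine. All 6 aged arrays carried the knockout, and aged wild-type liver was not analysed here, so lesions were set only against knockout liver. Lesion and adjacent liver were paired as 1 mouse where sex and age were equal, an inference from the labels.

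Glycolysis splits glucose into pyruvate, and its one-way steps are run by hexokinase, phosphofructokinase and pyruvate kinase. Adult hepatocytes rely on liver forms of these enzymes, among them the liver-type phosphofructokinase and the liver form of pyruvate kinase, which are controlled by feeding and hormones so that the liver can also make glucose. Fetal liver, most other tissues and many tumours use hexokinases with a high affinity for glucose, other phosphofructokinase subunits, aldolase A and the M form of pyruvate kinase. For the hexokinases and for Aldoa, no liver counterpart was analysed here.

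Signals are linear intensities scaled by the authors to a common trimmed mean, and signals of different probe sets were not compared with each other. Differences were taken on log2(signal + 16.8), and a gene was called when its limma p-value was below 0.05 after Benjamini-Hochberg adjustment over 11032 genes, those that passed a filter on low signals. All 8 isozyme genes passed that filter. Where groups are said below to lie apart, the share of all genes that did so is not given. With 2 or 3 arrays a side, the fits had 1 or 2 residual degrees of freedom, so that precision is limited by how few arrays there were.

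Gnmt itself had signals of 245.2 and 190.0 in the KO pools, 11.7 to 329.4 on the 6 aged KO arrays, and 59472.6 and 52139.9 in the WT pools. Summed signals of 9 hepatocyte markers were high on all arrays, from 385000 to 597300. The male HCC and its adjacent liver stood apart from the other 8 arrays. Their summed signals of 6 neutrophil markers were 15360 and 15120, against 424.2 to 1660 elsewhere. Those sums were mostly S100a8 and S100a9, and Ngp and Camp were also highest on both arrays. Csf3r, at 352.6 in the male HCC and 203.0 in its adjacent liver, and Cxcr2, at 23.3 and 103.6, did not set both arrays apart. Signals of Slc2a2, the main glucose transporter of hepatocytes, were 1136 and 926.9 on the same arrays, against 9349 to 22438 elsewhere. Summed signals of 6 genes of dividing cells were higher in every lesion than in its adjacent liver, at 2754 against 1575 in the female HCC, 5518 against 1639 in the male HCC and 2220 against 607.9 in the nodule. The part of these markers in the isozyme differences was not tested. The skeletal muscle and adipocyte markers were low on all arrays, with summed signals of 236.6 to 547.8 and 12.8 to 155. The ratio of the spiked control BioC to BioB separated the 6 aged arrays (1.45 to 1.84) from the 4 young ones (3.9 to 5.09).

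In both carcinomas, Pfkp rose by about 3 log2 units over adjacent liver. Pfkp encodes the platelet-type subunit of phosphofructokinase, the enzyme that commits sugar to glycolysis. Its probe set (NCBI gene 56421) had signals of 1139 in the female HCC and 2009 in the male HCC, against 127.1 and 201.5 in their adjacent livers. Both tumours lay far above both adjacent livers and above every young pool (129.1 to 190.2). The difference was 3.11 ± 0.29 (SE, 2 pairs), an 8.63-fold increase on that scale with a limma adjusted p of 0.0152. By p-value Pfkp ranked 2 of the 11032 genes, and by size of increase 7. It was the only one of the 8 isozyme genes called in HCC, where 0.0816% of all genes were called (7 higher and 2 lower). The call was lost in the mean over all Pfkp probe sets (1.80, adjusted p = 0.146), without the intensity trend (0.278), in 1 model over all 10 arrays (0.115) and without the mouse term (adjusted p = 1). It was also lost with the female pair left out (3.21, adjusted p = 0.117) or the male pair left out (3.01, adjusted p = 0.079), in a model over all remaining arrays.

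The nodule did not show a Pfkp signal of that size. There Pfkp stood at 223.8, against 152.2 in the adjacent liver, a log2 difference of 0.51 with 1 array a side and no test. Over all 3 lesions the difference was 2.24 ± 0.53 (SE, 3 pairs, limma adjusted p = 0.285) and was not called. A pair of further Pfkp probe sets, with signals of only 14.6 to 137.5, had log2 differences of 1.77 and 1.26 in the female HCC and of 1.02 and 0.55 in the male HCC. In the nodule those probe sets disagreed, at 0.72 and -0.92.

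**Figure D1:**
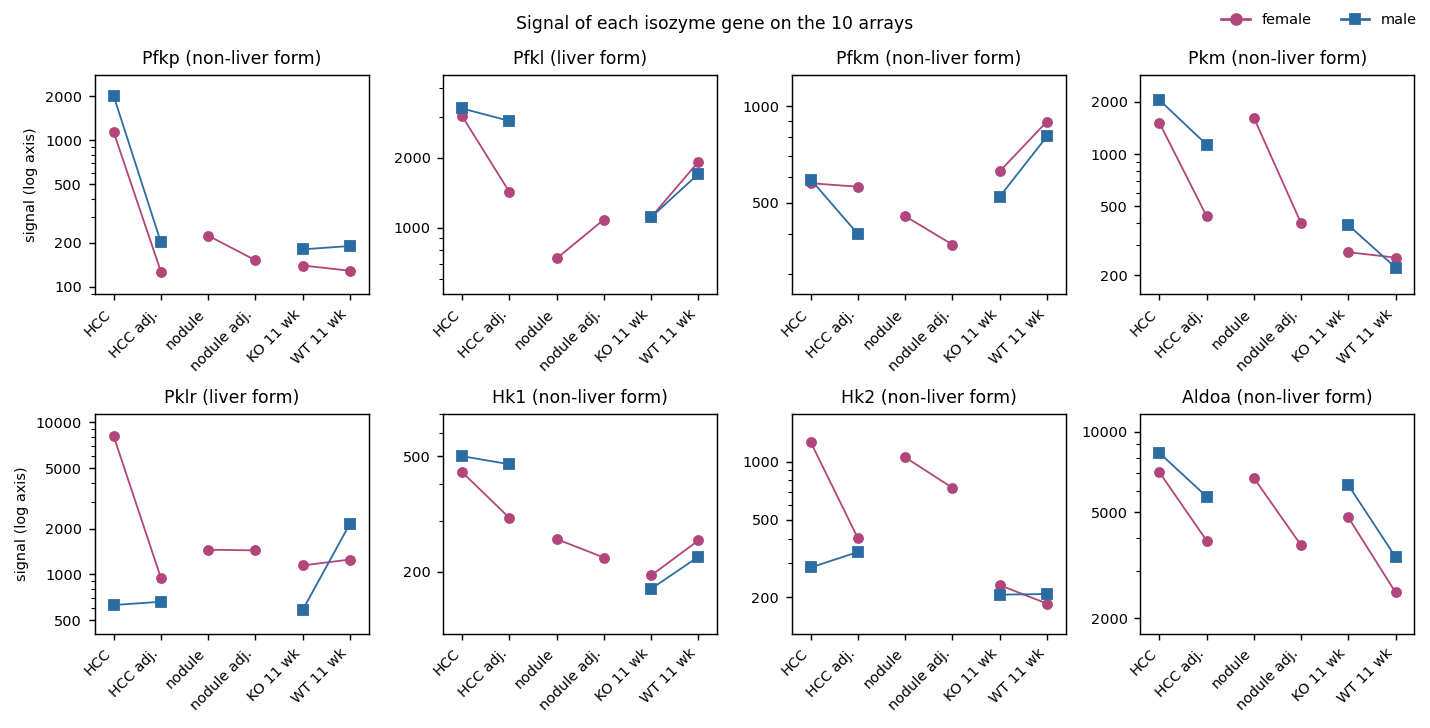
Signal (log axis) of the chosen probe set of each isozyme gene on the 10 arrays, with lesions left of adjacent liver and KO left of WT; circles are females, squares are males, and lines join lesion and adjacent liver or the KO and WT pool of 1 sex. Pfkp stood at 1139 and 2009 in the 2 carcinomas and at 127.1 to 223.8 on the other 8 arrays.

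Pfkl, the liver-type subunit of the same enzyme (NCBI gene 18641), did not show the Pfkp pattern. It had signals of 3023 in the female HCC and 3267 in the male HCC, against 1426 and 2887 in their adjacent livers. Both tumours were above both adjacent livers, but the male adjacent liver lay close to the tumours. The difference in HCC was 0.63 ± 0.30 (SE, 2 pairs, limma adjusted p = 0.723). In the nodule Pfkl was at 738.5, the lowest of the 10 arrays, against 1086 in the adjacent liver. A further Pfkl probe set gave log2 differences of 0.61 in the female HCC, -0.14 in the male HCC and -0.09 in the nodule, smaller in size than those of the chosen one (1.08, 0.18 and -0.55). A dimmer one, at 25.3 to 118.6, gave the opposite order (-0.11, 0.79 and 0.83).

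Pfkm, the muscle-type subunit (NCBI gene 18642), stayed within a narrow range in lesions and adjacent liver. It stood at 575.7 and 591.2 in the female and male HCC, against 561.5 and 399.7 in adjacent liver, and at 454.5 in the nodule, against 370.9. All 3 lesions were above their own adjacent liver, by 0.04, 0.55 and 0.28 log2 units. Neither the HCC difference (0.29 ± 0.30, SE, 2 pairs, limma adjusted p = 0.907) nor that of all lesions (adjusted p = 0.696) was called.

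The promoters of Pfkp and Pfkl are shown because these subunits of 1 enzyme differed in the tumours. Each sequence covers 250 bases before to 50 after the RefSeq transcription start on GRCm38.p6, written 5′ to 3′ on the gene's minus strand, with every copy of GCGTG in capitals. The letters GCGTG are a core sequence bound by hypoxia-inducible factors, and so is the related ACGTG. The last motif was the E-box with the letters CACGTG, which contains the second. All were searched on both strands.
Pfkp, chr13:6648722-6649021: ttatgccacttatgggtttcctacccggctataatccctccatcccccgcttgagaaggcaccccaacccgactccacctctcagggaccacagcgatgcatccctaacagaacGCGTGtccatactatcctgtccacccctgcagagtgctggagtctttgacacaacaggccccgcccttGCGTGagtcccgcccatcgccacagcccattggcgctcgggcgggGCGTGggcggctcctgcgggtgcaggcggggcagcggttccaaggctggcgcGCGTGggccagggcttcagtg
Pfkl, chr10:78009758-78010057: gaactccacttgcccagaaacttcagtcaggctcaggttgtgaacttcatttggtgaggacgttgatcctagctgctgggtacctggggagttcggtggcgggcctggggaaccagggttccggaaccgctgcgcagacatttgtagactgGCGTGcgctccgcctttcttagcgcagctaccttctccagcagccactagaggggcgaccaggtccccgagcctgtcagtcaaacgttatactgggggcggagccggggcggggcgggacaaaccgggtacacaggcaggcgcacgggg
The Pfkp window held GCGTG 4 times, at positions -136, -68, -23 and 30 from the start site, all on the sense strand. The Pfkl window held it once, at -99. Among 32851 promoters of that length, 32.4% held at least 1 copy of GCGTG and 1.33% held at least 4. The cut of 4 is the Pfkp count itself, and these promoters were not matched to Pfkp in their share of G and C. Neither window held the second core, ACGTG, present in 19.6% of promoters, or the E-box, present in 7.15%. Windows of genes that differed little in the tumours held such cores too. An Hk1 window held GCGTG 3 times and ACGTG 2 times, and a Pfkm window held ACGTG 3 times and 1 E-box. The Pfkm matches of ACGTG at -136 and -135 are the 2 strands of that E-box, so they are not separate sites. Other windows of these genes held fewer. The Hk2 window held ACGTG 2 times, and the Aldoa windows held at most 1. No binding was measured, so all these matches are a description of letters only.

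Pkm, the pyruvate kinase gene of most tissues outside adult liver (NCBI gene 18746), was higher in every lesion than in its adjacent liver. Its signals were 1517 in the female HCC, 2051 in the male HCC and 1623 in the nodule, against 438.8, 1133 and 399.7 in the adjacent liver of the same mice. The lowest lesion lay above the highest adjacent liver, which was that of the male. This separation is only described, since the share of all genes that showed it is not given. In signal the lesions were 3.46, 1.81 and 4.06 times their adjacent liver. The difference over the 3 lesions was 1.53 ± 0.26 (SE, limma adjusted p = 0.209, unadjusted p = 0.000835) and was not called. In HCC alone it was 1.30 ± 0.31 (adjusted p = 0.22). Without the male pair the difference over the remaining lesions was 1.86 with an adjusted p of 0.00832, past the threshold. That fit called 177 genes in all, against 1 with every pair included. Without the female HCC pair the difference was 1.41 (adjusted p = 0.642). Markers of non-hepatocyte cells, several of which use Pkm, also had higher signals in part. Over all lesions, 8 of 8 endothelial, 7 of 10 macrophage and 4 of 8 stellate and fibroblast markers had positive estimates, with medians of 0.28, 0.32 and 0.11, and none was called. In the nodule, where the Pkm difference was highest, summed macrophage markers were 24860, against 13380 in adjacent liver. Summed endothelial markers were 7466 there, against 5279. The stellate and fibroblast markers had a median log2 difference of 0.46 in the nodule. They ran from 4.42 for the collagen gene Col1a1, with an adjacent signal of only 21.8, to -0.36 for Dcn. In the female HCC the macrophage sum was 22570, against 24190, and in the male HCC 29420, against 25180. The part of these cells in the Pkm signal was not tested. The probe set does not tell the M1 and M2 splice forms of Pkm apart here, since only 1 value per gene was used.

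None of the 8 isozyme genes was called over all lesions, where 0.00906% of all genes were called, a single gene. At an unadjusted limma p below 0.05 there were 3 of the 8 (Pfkp, Pkm and Aldoa), against 9.93% of all genes tested. In the nodule alone, Pkm was the only isozyme gene at least 2-fold higher than in adjacent liver, as were 7.81% of all genes.

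Pklr, which encodes the liver and red cell forms of pyruvate kinase (NCBI gene 18770), was high in 1 tumour. Its signal in the female HCC was 8104, against 947.7 in her adjacent liver, and the highest of the other 8 arrays was 2150. In the male HCC it was 629.1, against 661.3 in adjacent liver, and in the nodule 1452, against 1438. Thus 1 lesion stood 8.55 times above its adjacent liver in signal, and the other lesions were at 0.951 and 1.01 times. The HCC difference was 1.50 ± 0.60 (SE, 2 pairs, limma adjusted p = 0.596), and it was -0.07 without the female pair. Further Pklr probe sets were also highest in the female HCC, at 2025 and 1646, with log2 differences of 1.80 and 2.43 over adjacent liver. Summed erythroid markers were 662 in that tumour and 444.9 in its adjacent liver, against 6102 in the male WT pool, the highest. Their part in the Pklr signal was not tested.

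The promoter at the more downstream of 2 RefSeq starts of Pkm is shown beside the pyruvate kinase values. It lies on the plus strand, with the letters CACGT in capitals, which the opposite strand reads as ACGTG.
Pkm, chr9:59656977-59657276: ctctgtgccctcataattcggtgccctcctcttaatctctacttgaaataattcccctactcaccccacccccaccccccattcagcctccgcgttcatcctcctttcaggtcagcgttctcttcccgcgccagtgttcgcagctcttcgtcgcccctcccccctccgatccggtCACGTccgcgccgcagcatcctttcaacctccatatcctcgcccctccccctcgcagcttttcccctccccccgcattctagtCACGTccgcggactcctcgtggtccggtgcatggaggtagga
The matches begin at -75 and 9 from that start. The other Pkm window, chr9:59656326-59656625, held none of the 3 motifs. Neither Pklr window (chr3:89135892-89136191 and chr3:89136373-89136672) held any of the 3 motifs. Of all promoters of this length, 43.8% held at least 1 of the hypoxia-inducible factor cores.

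Hk2, a high-affinity hexokinase of muscle, fat and many tumours, was high in the lesions of the females and not in that of the male. Its probe set (NCBI gene 15277) had signals of 1257 in the female HCC, 285.0 in the male HCC and 1051 in the nodule, against 401.8, 342.2 and 731.6 in the adjacent liver of the same mice. The female HCC and the nodule were above all adjacent livers, while the male HCC was below all of them. The difference over all lesions was 0.62 ± 0.35 (SE, 3 pairs, limma adjusted p = 0.612), and in HCC it was 0.68 ± 0.43 (adjusted p = 0.82). In HCC it was -0.25 without the female pair.

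Hk1, the hexokinase of brain, red cells and most other tissues (NCBI gene 15275), differed little between lesion and adjacent liver. It stood at 440.9, 500.6 and 259.2 in the female HCC, male HCC and nodule, against 306.5, 469.6 and 223.8 in adjacent liver. Each lesion was slightly above its own adjacent liver, and the groups overlapped. The difference was 0.26 ± 0.22 (SE, 3 pairs, limma adjusted p = 0.74). One more probe set that lists Hk1 among 6 genes was not used, and a further one of Hk1 alone was at 3.9 to 85.5.

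Aldoa, the aldolase of muscle and most tissues outside adult liver (NCBI gene 11674), was higher in every lesion. Its signals were 7060 in the female HCC, 8335 in the male HCC and 6720 in the nodule, against 3915, 5719 and 3760 in the adjacent liver of the same mice. All 3 lesions lay above all 3 adjacent livers, and the within-mouse differences of 0.85, 0.54 and 0.83 log2 units were similar in size. The share of all genes that separated in this way is not given, so the separation is only described. The difference over all lesions was 0.74 ± 0.18 (SE, limma adjusted p = 0.299) and was not called. All of the other 4 Aldoa probe sets were also higher in each lesion, by 0.34 to 1.18 log2 units. Like the chosen one, these have names ending in x_at, the array maker's mark for probe sets some of whose probes may also match other transcripts.

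**Figure D2:**
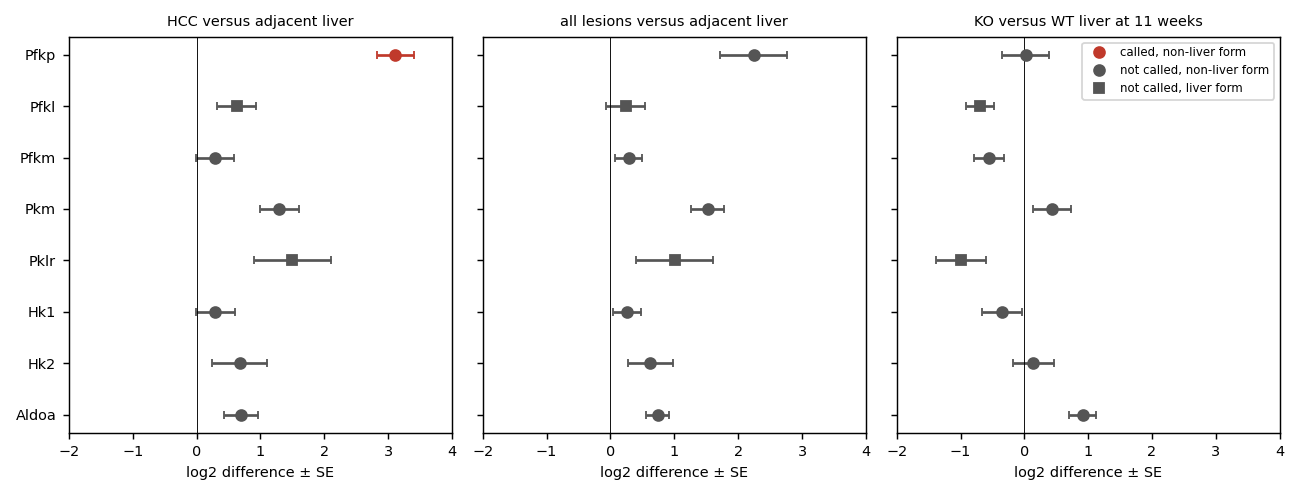
Log2 difference ± SE from limma for each isozyme gene in HCC over adjacent liver (2 pairs), all lesions over adjacent liver (3 pairs) and KO over WT pools at 11 weeks (2 arrays each); squares are liver forms, circles non-liver forms, and red marks a called gene. Pfkp in HCC, at 3.11 ± 0.29, is the only called value.

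Lesion values of the liver and non-liver forms are given side by side, with no test between the forms. Of the 6 non-liver genes, 6 were higher in the female HCC, 5 in the male HCC and 6 in the nodule than in adjacent liver, while 51.4%, 46.2% and 52.1% of all genes tested were. Their median log2 differences were 1.23, 0.54 and 0.51, against medians over all genes of 0.02, -0.04 and 0.03. Of the 2 liver forms, both were higher in the female HCC, and 1 each in the male HCC and in the nodule. Their medians were 2.08, 0.05 and -0.27, so in the female HCC the liver forms had the higher median. Over the 3 pairs, all 8 genes had a positive estimate, with a median of 0.68, against 50.5% positive and a median of 0.0039 over all genes. The genes were chosen with results of these arrays known, so these counts are a description.

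Within an enzyme, the difference of the non-liver form minus that of the liver form was positive for Pfkp against Pfkl in every lesion. It was 1.93 log2 units in the female HCC, 3.04 in the male HCC and 1.06 in the nodule. With the mean over all probe sets of each gene it was 1.49, 1.32 and 0.04, so the nodule value depends on the chosen probe sets. For Pkm against Pklr it was -1.32 in the female HCC, 0.92 in the male HCC and 1.96 in the nodule, so the female HCC ran the other way. For Pfkm against Pfkl it was -1.04, 0.37 and 0.83 in the same order. An exact two-sided sign-flip test over 3 pairs cannot go below p = 0.25, so no p is given. In bulk liver RNA, more cells that use a form and more of its RNA per cell cannot be told apart.

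**Figure D3:**
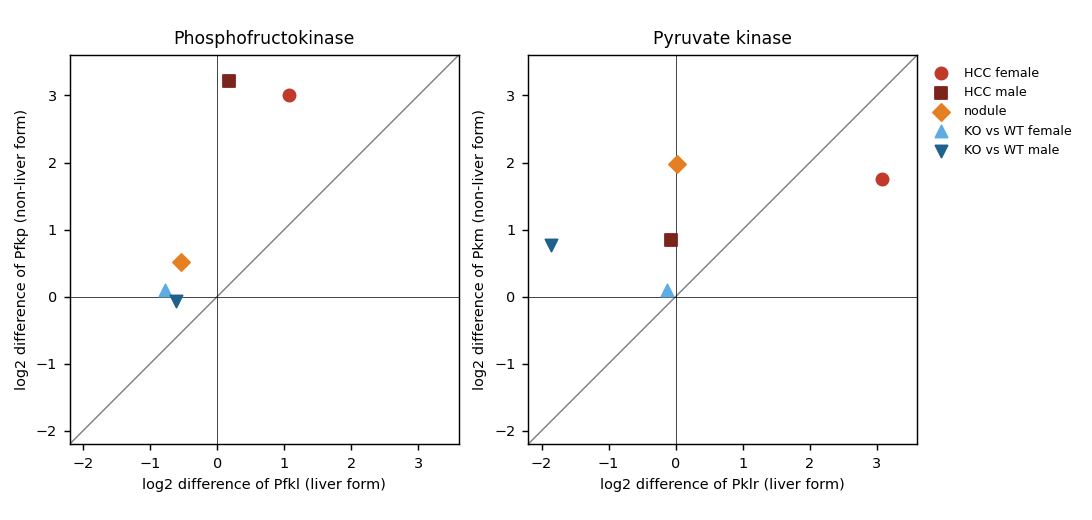
Log2 difference of the non-liver form (vertical) against that of the liver form (horizontal) for Pfkp and Pfkl (left) and Pkm and Pklr (right); each point is a lesion over its adjacent liver or KO over WT in 1 sex, and the diagonal marks equal differences. All points of the left panel lie above the diagonal, and in the right panel the female HCC, at 3.07 for Pklr and 1.75 for Pkm, lies below it.

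At 11 weeks, none of the isozyme genes was called between KO and WT pools, although 1.45% of all genes were. The lowest adjusted p was that of Aldoa. It had signals of 4781 in the KO female and 6319 in the KO male pool, against 2504 and 3397 in the WT female and male pools. Both KO pools lay above both WT pools, by 0.93 log2 units in females and 0.89 in males. Summed signals of the 6 genes of dividing cells were also higher in KO, at 848.5 and 1598 in the KO female and male pools, against 179.7 and 470.4 in WT. All 5 of them that were tested had positive estimates (median 1.89), with Cdc20 called (adjusted p = 0.0464), and their part in the Aldoa values was not tested. The Aldoa difference was 0.91 ± 0.20 (SE, 2 pools each, limma adjusted p = 0.0836). It passed the threshold after quantile normalization (0.82, adjusted p = 0.0412) and after centring on the 75th percentile (1.06, adjusted p = 0.0406). Those scalings called 607 and 341 genes in all, against 160 in the main fit. It did not pass with the mean of all probe sets (0.56, adjusted p = 0.228) or without the intensity trend (0.235). Nor did it pass without the sex term (0.221), over all 10 arrays (0.261) or with any pool left out. Another Aldoa probe set was lower in the KO female pool, with a log2 difference of -0.27, and the other 3 were higher in both sexes.

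Both liver forms had lower signals in both KO pools. Pfkl had 1111 and 1112 in the KO female and male pools, against 1927 and 1709 in the WT female and male pools, with no overlap. Its difference was -0.70 ± 0.22 (SE, limma adjusted p = 0.164), and a further probe set gave -0.85 in females and -0.72 in males. Pklr had 1145 and 582.6 in the KO female and male pools, against 1252 and 2150 in the WT female and male pools. The males differed by -1.85 log2 units and the females by -0.13, and the estimate of -0.99 ± 0.39 (SE) had an adjusted p of 0.234. Without the male WT pool it was 0.25, in a model over all remaining arrays. The sex term of that model comes from every group, carcinomas included, so 0.25 is not the difference of the female pools. Further Pklr probe sets gave -2.55 and -2.81 in males and -0.20 and 0.25 in females. Summed erythroid markers were 419.3 in the KO female and 2422 in the KO male pool, against 863.8 and 6102 in the WT female and male pools. That sum was mostly Alas2, at 266.4 and 2236 in the KO female and male pools, against 812 and 6014 in WT. The other markers in it, Hba-a1, Slc4a1 and Epb42, did not pass the filter and were higher in KO in both sexes. The part of these markers in the Pklr values was not tested.

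Of the non-liver forms, Pfkm and Hk1 were also lower in both KO pools. Pfkm stood at 626.9 and 523.1 in the KO female and male pools, against 895.9 and 805.5 in WT, and its difference was -0.56 ± 0.23 (SE, limma adjusted p = 0.246). Hk1 stood at 194.2 and 174.7 in the KO female and male pools, against 256.5 and 225.3 in WT, at -0.36 ± 0.31 (adjusted p = 0.575). Neither gene's KO signals overlapped its WT signals. With 2 pools a side, an exact two-sided permutation test cannot go below p = 0.33, here or for Aldoa, Pfkl and Pkm. How many of all genes separated in this way is not given, so separation is only described. Summed endothelial markers were lower in the KO pools as well, at 5290 and 6092, against 13880 and 10440 in WT, and their part was not tested.

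For Pkm, Pfkp and Hk2 the estimates at this age were positive and not called. Pkm had 271.7 and 389.9 in the KO female and male pools, against 252.9 and 221.7 in WT (0.43 ± 0.30, SE, limma adjusted p = 0.475), with a log2 difference of 0.77 in males and 0.10 in females. Pfkp had 140.0 and 180.5 in the KO female and male pools, against 129.1 and 190.2 in WT (0.02 ± 0.36, adjusted p = 0.985). Hk2 had 231.0 and 206.3 in the KO female and male pools, against 185.6 and 208.0 in WT (0.14 ± 0.32, adjusted p = 0.848). The KO and WT signals of Pfkp and Hk2 overlapped, and those of Pkm did not. In all, 4 of the 8 genes had positive and 4 negative estimates, with a median of -0.17, against -0.05 over all genes. At an unadjusted limma p below 0.05 there were 4 of the 8 (Pfkl, Pfkm, Pklr and Aldoa), against 19.5% of all genes. The ratio of the 3′ to the 5′ signal of Actb, a measure of RNA quality, was 3.38 and 3.18 in the KO female and male pools and 2.62 and 2.6 in WT. The same ratio of Gapdh overlapped between the genotypes, at 0.955 and 1.09 in the KO pools and 0.938 and 0.982 in the WT pools. The part of RNA quality in these differences was not tested.

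**Figure D4:**
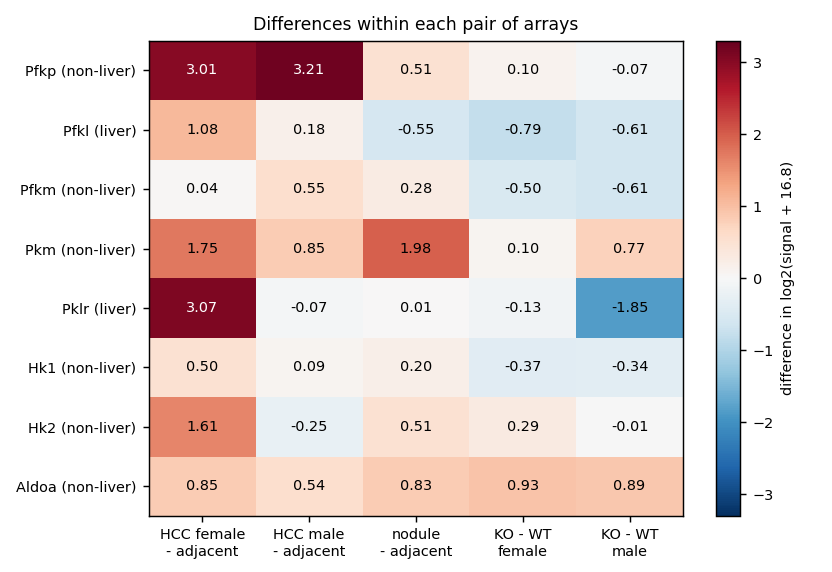
Difference in log2(signal + 16.8) of each isozyme gene within each pair of arrays, with red for higher and blue for lower in the lesion or in the KO pool. Pfkp was at 3.01 and 3.21 in the carcinomas, Pklr at 3.07 in the female HCC and at -1.85 in the male KO pool.

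Adjacent liver of the aged knockout mice was next set against the young KO pools. No isozyme gene was called, and 0% of all genes were, with 2 of the 8 (Pkm and Hk2) at an unadjusted limma p below 0.05, against 12.3% of all genes. The spiked-control ratio given above also separated the aged from the young arrays, so age and whatever else differed between those arrays cannot be told apart. This comparison shares arrays with those above. Hk2 had signals of 401.8, 342.2 and 731.6 in the aged adjacent livers of the HCC female, HCC male and nodule-bearing female, against 231.0 and 206.3 in the young KO pools. Pkm had 438.8, 1133 and 399.7 in the same order, against 271.7 and 389.9. For both genes the aged livers lay above the young ones, by 0.97 ± 0.35 for Hk2 (SE, adjusted p = 0.391) and 0.98 ± 0.30 for Pkm (adjusted p = 0.386). Pfkm was at 561.5, 399.7 and 370.9 in the aged livers, against 626.9 and 523.1 (-0.41 ± 0.28, adjusted p = 0.548). Hk1 (0.81 ± 0.36), Pfkl (0.68 ± 0.33), Pklr (0.09 ± 0.27), Pfkp (0.06 ± 0.36) and Aldoa (-0.24 ± 0.20) made up the rest. Leaving out 1 array moved Pfkl between 0.16 and 1.36, Hk1 between 0.40 and 1.35 and Pkm between 0.59 and 1.50. Their lowest values came without the male HCC-adjacent liver or the male KO pool, and their highest without the female KO pool.

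The highest aged adjacent signals of Pfkl (2887), Hk1 (469.6), Pkm (1133), Aldoa (5719) and Pfkp (201.5) were all those of the male. In that liver the summed neutrophil markers, mostly S100a8 and S100a9, and Slc2a2 stood apart. Their part was not tested. That liver had the lowest Pklr (661.3) and Hk2 (342.2) of the 3.

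Between the sexes at 11 weeks no isozyme gene was called, against 0.272% of all genes, and none had an unadjusted limma p below 0.05, against 9.21% of all genes. The largest estimates were those of Aldoa (-0.42 ± 0.20, SE, adjusted p = 0.577) and Pfkp (-0.42 ± 0.36, adjusted p = 0.744). Both had lower signals in the female pool of each genotype. The remaining estimates ran from -0.16 for Pkm to 0.20 for Pfkm. The Pklr estimate was 0.09. With 1 pool left out, a model over all remaining arrays was used. Its sex term covers every group, carcinomas and aged livers included, so it is not the contrast at 11 weeks alone. There Pklr was between 1.13 and 1.70 and Hk2 between 0.72 and 0.82.

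Over the whole series the group means came in a different order for each enzyme. Pfkp averaged 1574 ± 615 in HCC (SD, n = 2), then 223.8 in the nodule, and the means of the other 4 groups lay between 152.2 and 164.3 with overlapping signals. Pkm averaged 1784 ± 378 in HCC, with the nodule inside that range, then 786.0 ± 491 in HCC-adjacent liver, and it was lowest in WT at 237.3 ± 22.1. Aldoa was likewise highest in HCC (7697 ± 901) and lowest in WT (2951 ± 631), with KO pools (5550 ± 1090) and HCC-adjacent liver (4817 ± 1280) overlapping.

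Pfkl ran from 3145 ± 173 in HCC (SD, n = 2) down to the nodule, with HCC-adjacent liver (2156 ± 1030) and WT (1818 ± 155) overlapping. Pfkm was highest in WT, at 850.7 ± 63.9, and the HCC, KO and HCC-adjacent groups below it overlapped. Pklr averaged 4367 ± 5290 in HCC, where the SD exceeds the mean because 1 tumour carried the signal. Hk1 was lowest in the KO pools (184.4 ± 13.8) and Hk2 in WT (196.8 ± 15.8), where it overlapped the KO pools (218.7 ± 17.5).

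Of 30 other genes of glycolysis and its transporters, 23 had a probe set of their own and 19 passed the filter on low signals. None of those was called by limma in any of the 5 comparisons. Their median log2 difference was -0.07 over all lesions, with 8 of 19 positive, against a median of 0.0039 over all genes. The largest lesion differences were those of Ldhb, a lactate dehydrogenase subunit (-0.68, adjusted p = 0.417), Hkdc1, a hexokinase relative (0.61, adjusted p = 0.748), and Slc16a1, a lactate transporter (0.58, adjusted p = 0.442). Ldhb was below adjacent liver in every lesion, with log2 differences of -1.07, -0.34 and -0.64 in the female HCC, male HCC and nodule. In KO against WT its log2 difference was 0.88 (adjusted p = 0.124).

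None of 13 regulators was called either. In KO pools, Mlxipl, the carbohydrate-response factor ChREBP that drives Pklr, was at 3309 and 1681 in females and males, against 5772 and 4002 in WT (-1.02, limma adjusted p = 0.0792). Srebf1, a lipogenic factor that responds to insulin, had a log2 difference of 1.04 in KO (adjusted p = 0.192). That value rests largely on the KO female pool, with differences of 1.85 in females and 0.235 in males. Ptbp1, a splicing factor known for favouring the M2 form of Pkm, was at -0.73 (adjusted p = 0.16). Over all lesions the largest values were those of Myc (0.88, adjusted p = 0.379), Mlxipl (0.60) and Ppargc1a, a coactivator of gluconeogenic genes (-0.39).

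Among 9 hypoxia-inducible factor targets outside glycolysis that passed the filter, none was called. Their median was 0.27 over all lesions, with 7 of 9 positive, led by Ndrg1 (1.11, limma adjusted p = 0.671) and P4ha1, a collagen prolyl hydroxylase subunit (0.67, adjusted p = 0.452). The Ndrg1 value rests on the nodule, at 3.72, since the female and male HCC were at -0.02 and -0.37. In HCC the median was 0.08 and in KO pools -0.50, with Ndrg1 at -1.54 (adjusted p = 0.142).

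**Figure D5:**
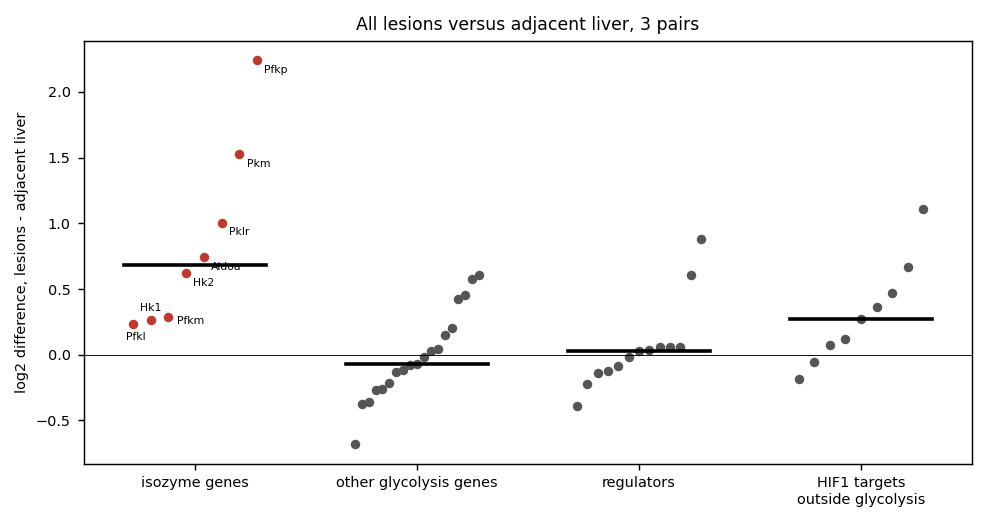
Log2 difference of all lesions over adjacent liver (3 pairs) for the 8 isozyme genes in red and the genes past the filter of 3 lists in grey (19, 13 and 9 genes); each point is a gene and the bars are medians. The medians are 0.68 for the isozyme genes, -0.07 for the other glycolysis genes, 0.03 for the regulators and 0.27 for the hypoxia-inducible factor targets.

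Across the 10 arrays, the genes whose log2 signals were most like Pfkp were Ankrd27 (Pearson r = 0.968), Smox (0.963), Scamp5 (0.946), C2cd4c (0.938) and Trim30a (0.935). Each of these had both carcinomas above the other 8 arrays, as for Ankrd27, at 1533 and 1638 in HCC against 844.2 to 1110 elsewhere. Closest to Pklr were Xpot (0.911), Snx3 (0.908), Tbc1d23 (0.884), Oasl2 (0.863) and Bmp6 (0.857). For Bmp6, which encodes a growth factor that controls hepcidin in liver, the female HCC was at 705.9 against 74.7 to 284.5 on the other arrays. These r values describe 10 arrays that share mice and rest largely on 1 or 2 tumours.

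Among the isozyme genes themselves, the highest r values over the 10 arrays were 0.83 for Pkm and Aldoa, 0.82 for Pfkl and Hk1, 0.77 for Pkm and Hk1 and 0.75 for Pfkp and Pkm. Pklr had r values of 0.09 with Pkm, 0.15 with Pfkl and 0.60 with Hk2. Pfkm had r values from -0.56 to 0.21 with the other genes.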

How the data were processed

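Liver RNA of 10 samples was measured on Affymetrix arrays, 1 array a sample. Biotin-labelled RNA was made from 5 ug of total RNA, per the labels' protocols. The deposited table gives each probe set a linear intensity, which the authors computed with GCOS, per the submitters' processing notes; its version and settings are not given in the sources used here. Trimming 2% of values from both ends gave a mean of 500 on every array, so the authors' scaling hides any difference in total signal. Median signals were 77.4 to 102.4.

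Of 45101 probe sets, 34945 named 1 gene and 932 several in the probe set annotation, and 34741 were matched by gene identifier to RefSeq. Each gene took its probe set with the highest mean over the 10 arrays. Values were log2(signal + 16.8), the 20th percentile of all values, and genes whose mean was above a signal of 91, the median of all values, were tested (11032 of 18193). Models were fitted with limma 3.58.1 in R 4.3.3, with an intensity trend, and tested on simulated data. KO was compared with WT with sex as a term, females with males with genotype, lesions with adjacent liver with the mouse, and aged adjacent with young KO liver with sex. The mouse pairing was inferred from sex and age. Nothing says whether arrays of a group were handled apart, so p-values measure only the spread between these arrays.

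The isozyme genes, lists and tests were chosen with earlier results of these data known. The rule named all 8 isozyme genes and, from each list, any called gene and the 3 largest differences per comparison. Alternatives were the added constant, normalization, filter, probe set rule, variance prior, arrays in the fit, the block, and leaving out each array or pair. Promoter sequences are RefSeq's on GRCm38.p6. Unequal changes within the hexokinase and aldolase steps were planned and are not reported here, and adjusted p-values are given over all genes only.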

Additional observations from a re-analysis of the deposited data

Results flagged for a closer look

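Several isozyme genes had log2 differences of opposite sign in the groups set side by side here. Each side is 1 pair of arrays, except where 2 carcinomas are named, and none of these contrasts between pairs was tested.

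Pklr differed from adjacent liver by 3.07 in the female HCC and by -0.07 in the male HCC. Between the sexes at 11 weeks it was at 0.95 in KO and -0.77 in WT pools, females over males. Hk2 was at 1.61 in the female HCC and -0.25 in the male HCC. Its KO over WT differences were 0.29 in females and -0.01 in males, and its female over male differences were 0.15 in KO and -0.15 in WT pools. Pfkl was at -0.55 in the nodule, where the carcinomas were at 1.08 and 0.18, and its female over male differences were -0.0008 in KO and 0.17 in WT pools. Pkm had female over male differences of -0.5 in KO and 0.18 in WT pools. Pfkp had KO over WT differences of 0.1 in females and -0.07 in males.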

How the results depend on the processing

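The number of called genes depended strongly on the fit. For KO against WT, 160 genes were called, with 607 after quantile normalization, 341 after centring on the 75th percentile, 38 with the mean of all probe sets, 1 without the intensity trend, 1 over all 10 arrays, 2 with no replicate block (without the sex term), and 0 to 9 with a pool left out (9 without the WT female pool, 0 without any other). For HCC, 9 were called, with 3 after quantile normalization, 4 after percentile centring, 16 without a filter, 0 without the trend, 0 with no replicate block (without the mouse term), 0 over all 10 arrays, and 5 to 9 with a pair left out. For all lesions, 1 was called, with 3 after percentile centring, 3 without a filter, 0 with the mean of probe sets, 0 with no replicate block and 0 over all arrays. It was 2 to 177 with a pair left out (177 without the male HCC pair, 9 without the nodule pair, 2 without the female HCC pair). For age, 0 were called, and 0 to 441 with an array left out (441 without the KO female pool, 110 without the nodule-adjacent liver, 9 without the female HCC-adjacent liver). For sex, 30 were called, with 87 after quantile normalization, 19 with the mean of probe sets, 1 without the trend, 6 with no replicate block, 8 over all 10 arrays, and 5 to 22 with a pool left out. The cause was not tested. Leaving out an array or pair in a fit with 1 residual degree of freedom moved it to a model over all remaining arrays, so the lone array is assumed to vary like the others. For KO against WT and for sex, the sex term of that model comes from every group, carcinomas included.

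Of 504 refits of the isozyme genes, 456 kept direction and side of the threshold. Pfkp in HCC kept its call with the constant halved or doubled, both scalings and no filter (adjusted p 0.0137 to 0.0411) and lost it in 6 fits, at 1.80 to 3.21. Aldoa in KO passed in 2 fits, Pkm in lesions without the male pair, and Pfkp in lesions without the nodule pair, which is the HCC fit. Reversals were all of values that had not passed. With 1 pool left out of KO against WT, the model over all remaining arrays was used. There Hk2 ranged from -0.34 to 0.62, Pklr from -2.23 to 0.25, Pfkp from -0.14 to 0.17 and Pkm from -0.032 to 0.90. In HCC, Pklr ranged from -0.070 to 3.07 and Hk2 from -0.25 to 1.61, and in all lesions Pfkl from -0.18 to 0.63 and Pklr from -0.028 to 1.54, each lowest without the female HCC pair. For age, Pklr was -0.016 and -0.090 under the quantile and percentile scalings, -0.37 with the mean of probe sets, and -0.045 to 0.25 with arrays left out. Pfkp was -0.18, -0.12 and -0.16 there, -0.012 with no replicate block and -0.0079 to 0.15 with arrays left out. For sex, the fits over all 10 arrays and with pools left out take the sex term from every group, carcinomas included. In them Pklr was 1.09 and 1.13 to 1.70, and Hk2 was 0.57 and 0.72 to 0.82. Hk2 was -0.00027 with the constant halved, -0.18 and -0.12 under the scalings. Hk1 was -0.0087 after quantile normalization, -0.11 over all arrays and -0.21 to -0.20 with pools left out. Pfkl was -0.034 after percentile centring, -0.058 with the mean of probe sets, -0.24 over all arrays and -0.37 to -0.32 with pools left out. Pklr was -0.029 after percentile centring, and Pfkp was 0.30 with the mean of probe sets.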

Other observations

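Among the other genes of glycolysis and its transporters, the largest difference of aged adjacent liver from young KO liver was that of Slc2a2 (-1.94, limma adjusted p = 0.391). It came with signals of 14498, 926.9 and 16733 in the adjacent livers of the HCC female, HCC male and nodule-bearing female, against 22438 and 13351 in the KO female and male pools, so that 1 liver stood far below the others. Pfkfb4, a bifunctional enzyme that sets the level of a phosphofructokinase activator, was next (1.50, adjusted p = 0.374), and then Hkdc1 (0.97, adjusted p = 0.525). Of the regulators, Srebf1 was at -1.30 (adjusted p = 0.344), Myc at -0.70 and Mlxipl at 0.61. Of the hypoxia-inducible factor targets, Bnip3, a mitochondrial protein of mitophagy, was at -1.11 (adjusted p = 0.391), Adm, which encodes adrenomedullin, at 0.97 and P4ha1 at 0.33.

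In HCC against adjacent liver the largest log2 differences of the same lists were those of Ldhb (-0.71, limma adjusted p = 0.674), Mpc1, a subunit of the mitochondrial pyruvate carrier (-0.48), and Eno3, an enolase (-0.38). They were followed by Srebf1 (0.74), Myc (0.63) and Hnrnpa2b1 (-0.40) among the regulators, and P4ha1 (0.77), Adm (-0.42) and Egln1 (0.27) among the hypoxia-inducible factor targets. In KO against WT, Hkdc1 was at -0.63, Pfkfb3 at -0.55, Adm at -0.85 and Egln3 at 0.66, and over all lesions Adm was at 0.47. In females against males at 11 weeks, Pfkfb3 (-0.83), Aldoc (-0.70), Slc16a1 (0.69), Mlxipl (0.75), Myc (-0.72), Srebf1 (0.58), Ndrg1 (0.89), Egln3 (0.69) and Bnip3 (-0.57) had the largest values. None of these was called.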
